A study of Mus musculus with 14 samples.

Results

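Interferon response genes are the genes through which cells sense, receive and carry out the interferon signal, and 51 of them were followed here as one set in sorted haematopoietic stem cells (HSCs), which give rise to every blood lineage. A member was any row labelled with the gene's symbol, alone or with a copy number added to it, and of several copies the one with the highest mean was used. All 51 members were listed among the 48714 gene labels joined across the libraries. The members comprised 4 sensors of viral nucleic acid, 4 interferon receptor genes, 4 transcription factors, 2 feedback regulators, 20 antiviral effectors, 7 interferon-inducible GTPases, 3 antigen processing genes and 7 further induced genes. HSCs came from the bone marrow of C57BL/6 mice and were sorted into a calcium-high and a calcium-low population, [Ca2+]high and [Ca2+]low in the labels, with 7 libraries of 100 cells in each group. Both populations were HSCs of the same strain, and the labels give no treatment, age, genotype or further sort gate for either. Libraries were numbered 1 to 7 in each group, and libraries 1 to 3 and 4 to 7 were analysed apart as well as together. Whether the libraries came from separate animals is not stated, so every p-value measures the spread between these libraries only.

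Interferons bind receptors at the cell surface, and the receptors pass the signal through Janus kinases to STAT proteins. Type I interferons use the Ifnar1 and Ifnar2 chains and lead to a complex with Stat2 and Irf9 that binds the interferon-stimulated response element (ISRE), while interferon gamma uses Ifngr1 and Ifngr2 and acts through the gamma-activated sequence (GAS). In mice, type I interferon is known to drive dormant HSCs into the cell cycle, and stem cells of several tissues are known to keep a share of these genes on without added interferon. The series' title asks about dormant and active HSCs and about calcium in the cytoplasm, and the comparison here asks whether interferon response transcripts went with the calcium level.

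Promoters are shown for the 3 members whose calcium difference was largest in libraries 4 to 7 and for Isg15, a classical interferon target. Windows of these genes differ in their matches to the ISRE. Sequences are those of RefSeq on build GRCm38.p6, 5′ to 3′, from 250 bases before the start site to 50 bases after it, and capitals mark each match, on either strand, to the ISRE core, which is GAAA and GAAA parted by 2 bases of any kind.
Ifitm1, chr7:140967826-140968125, plus strand: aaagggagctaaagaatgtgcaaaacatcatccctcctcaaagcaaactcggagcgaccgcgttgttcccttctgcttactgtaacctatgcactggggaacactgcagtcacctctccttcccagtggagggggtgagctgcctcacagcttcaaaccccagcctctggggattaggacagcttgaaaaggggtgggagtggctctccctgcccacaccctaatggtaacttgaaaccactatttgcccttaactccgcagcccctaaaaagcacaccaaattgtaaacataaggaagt
Ifitm3, chr7:141010695-141010994, minus strand: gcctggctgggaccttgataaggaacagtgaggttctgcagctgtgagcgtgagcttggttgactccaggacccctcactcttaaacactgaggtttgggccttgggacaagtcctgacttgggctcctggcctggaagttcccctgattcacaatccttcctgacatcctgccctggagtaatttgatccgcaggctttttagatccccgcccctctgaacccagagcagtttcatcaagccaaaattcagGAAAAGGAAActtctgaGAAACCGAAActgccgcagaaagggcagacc
Irgm2, chr11:58214727-58215026, plus strand: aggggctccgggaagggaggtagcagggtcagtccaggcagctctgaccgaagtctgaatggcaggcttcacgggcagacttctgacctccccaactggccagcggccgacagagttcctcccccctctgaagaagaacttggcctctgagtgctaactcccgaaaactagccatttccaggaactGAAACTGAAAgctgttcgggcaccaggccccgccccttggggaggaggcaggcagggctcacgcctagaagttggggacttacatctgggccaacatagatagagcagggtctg
Isg15, chr4:156200769-156201068, minus strand: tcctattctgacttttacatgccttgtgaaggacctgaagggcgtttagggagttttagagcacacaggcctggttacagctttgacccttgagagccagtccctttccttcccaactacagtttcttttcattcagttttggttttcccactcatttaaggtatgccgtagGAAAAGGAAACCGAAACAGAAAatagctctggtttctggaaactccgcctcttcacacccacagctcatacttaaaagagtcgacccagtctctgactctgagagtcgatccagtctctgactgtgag
Ifitm1 held 0 matches in this window. Ifitm3 held 2, which began 2 and 19 bases after the start site, and Irgm2 held 1, which began 64 bases before it. Isg15 held 3, of which neighbours overlap. A promoter was found for 41 of the 51 members, and 21 of those (51.2%) held the ISRE core, against 3.99% of the promoters of 27025 genes. The GAS core TTCNNNGAA, which reads the same on both strands, was in 14 members (34.1%) and in 9.55% of all promoters. These are matches of letters and not measured binding. The annotated spans of Ifitm1 and Irgm2 begin upstream of their windows, so any start site further upstream was not read.

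Values were given as RPKM, which are reads scaled to gene length and library size, so levels of different genes can be compared. Listed genes held 3575282 to 7387840 reads in libraries 1 to 3 and 8280756 to 10296347 reads in libraries 4 to 7, so the second set measures low genes with less counting error. HSC markers were present in every library, with a summed level of 253 to 458 RPKM in calcium-high against 251 to 376 RPKM in calcium-low libraries over 15 genes. The libraries with number 3 stood apart: calcium-low library 3 had 771 RPKM of 10 neutrophil markers, against at most 44.4 RPKM in other calcium-low libraries, and 231 RPKM of 8 cycling markers, against at most 25.1 RPKM. Calcium-low library 3 also had 162 RPKM and calcium-high library 3 had 87.4 RPKM of 10 erythroid markers. Results are therefore also given without the libraries numbered 3 where that changes them. In bulk samples such as these, fewer cells that use a gene and less RNA per cell cannot be told apart.

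HSCs of both groups had a standing level of most interferon response genes. Of the 51 members, 47 had a mean of 1 RPKM or more and were tested, and their means ran from 1.25 RPKM for Zbp1, a sensor of unusual nucleic acid, to 141 RPKM for Ifitm3. The 3 Ifitm genes, which encode small membrane proteins that hinder the entry of viruses, were far above the rest, and the next member, Ifi27, had a mean of 15.4 RPKM. Some classical targets that are strongly induced by interferon were low: Isg15, a ubiquitin-like modifier, had a mean of 1.76 RPKM, and Ifit1, which recognises foreign RNA, had 1.57 RPKM. Other induced members were higher, such as Oasl2 at 7.51 and Bst2 at 13.9 RPKM. Socs1, which inhibits Janus kinases, lay at 0.0625 to 0.694 RPKM and Ifit3 at 0.0314 to 1.60 RPKM, and both were under the filter. Mx1 and Mx2, antiviral GTPases, were listed at 0 in all 14 libraries, as was the abundant nuclear RNA Malat1. None of the 19 interferon genes examined had a mean of 1 RPKM, and 13 of them, Ifng among them, were listed at 0 throughout.

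**Figure D1:**
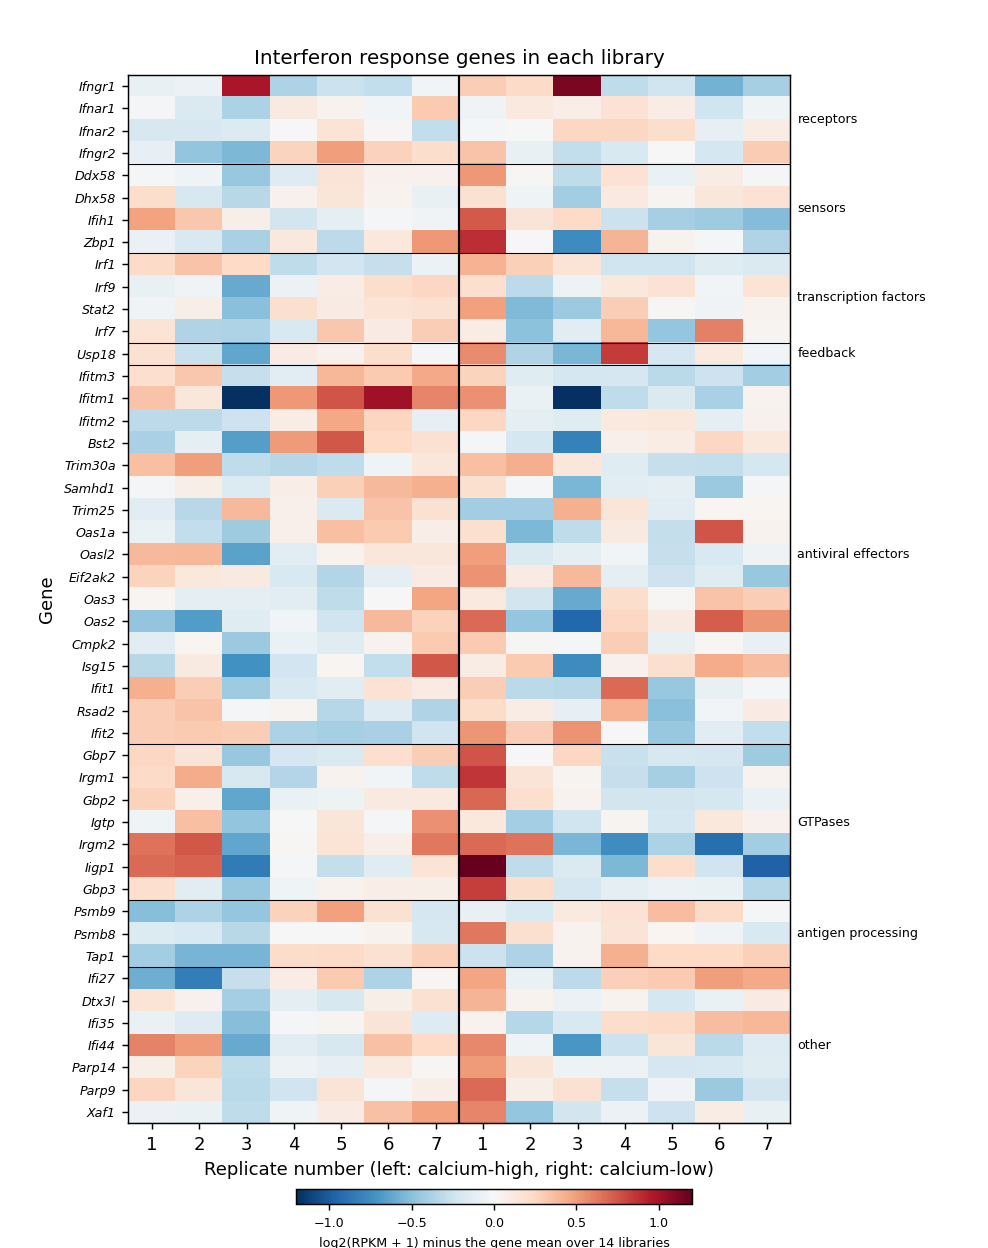
Level of each of the 47 tested members (rows, grouped by role) in the 14 libraries (columns, calcium-high on the left and calcium-low on the right), as log2(RPKM + 1) minus the gene's mean over the libraries, with colours ending at 1.2 in either direction. The columns numbered 3 hold the lowest value of 25 genes, and the calcium-low column numbered 1 the highest of 17.

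With all libraries, interferon response genes did not pass the test in either direction. Limma on log2(RPKM + 1), with p-values adjusted over all 9921 genes tested, called 0 of the 47 members, beside 0.00% of all genes. At an unadjusted p under 0.05, limma had 3 members, Ifitm3 and Samhd1 higher and Ifi27 lower in calcium-high HSCs, beside 6.74% of all genes. The members' median difference was -0.04 on the log2 scale, close to the -0.03 of all genes tested, and 19 of 47 members were higher in calcium-high libraries. The sign of that median rested on single libraries: it was 0.03 with 25 of 47 members higher without both libraries numbered 3, and 0.05 with 28 of 47 higher without calcium-low library 1. With the library number as a block, limma again called 0 members, beside 0.917% of all genes, and had 6 at an unadjusted p under 0.05 (4 higher, 2 lower), beside 13.9%. No member separated the 7 calcium-high from the 7 calcium-low libraries without overlap, as 0.141% of all genes did.

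Some fits that weighted or rescaled the libraries did call a few members over all 14 libraries. Without the block, median-of-ratios and upper-quartile scaling each called 0 members, beside 4 and 3 of 9921 genes, all higher. Limma's voom with sample quality weights, run on the recovered reads, called Ifitm1, Irgm2, Ifitm3 and Samhd1 higher and Ifi27 lower, beside 7.19% of all genes. A fit that joined the block to median-of-ratios scaling, chosen after seeing the data, called Ifitm1, Irgm2 and Ifitm3 higher, beside 2.04% of all genes called higher. Without both libraries numbered 3, the fit with the block called Ifi27 lower and no other member, with an adjusted p of 0.0464 by limma, beside 1.39% of all genes called lower.

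In libraries 4 to 7 alone, 4 members were higher in calcium-high HSCs by limma, beside 6.36% of all genes that were higher and 1.78% that were lower. They were Ifitm1, Irgm2, Ifitm3 and Samhd1, and no member was called lower. The members as a whole did not stand out there: their median difference was 0.09 on the log2 scale against 0.11 for all genes, and 30 of 47 were above 0. With the library number as a block the same 4 genes were called, beside 5.06% of all genes called higher. With median-of-ratios scaling the median of all genes was -0.02 and that of the members -0.06. That scaling called 2 members higher, Ifitm1 and Irgm2, and 2 lower, Ifi27 (adjusted p = 0.0308, limma) and Ifi35 (adjusted p = 0.0147, limma), beside 7.02% of all genes. With the block added to that scaling, Ifi27 was no longer called (adjusted p = 0.0640, limma), and Oas2 was called lower, by -0.44 on the log2 scale (adjusted p = 0.0232, limma). That fit called 212 genes higher and 365 lower of 9921.

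Ifitm1 (GRCm38 chromosome 7, 140967221 to 140969825, plus strand) encodes an antiviral protein of the cell surface. Calcium-high libraries 4 to 7 had 99.8, 117, 141 and 104 RPKM, and calcium-low libraries 4 to 7 had 55.8, 61.2, 52.4 and 71.0 RPKM. All 4 calcium-high libraries lay above all 4 calcium-low ones. The means were 115 ± 18.4 and 60.1 ± 8.12 RPKM (SD, n = 4), a difference of 0.93 ± 0.12 (standard error) on the log2 scale with an adjusted p of 0.00123 by limma. In libraries 1 to 3 the groups overlapped, with 87.7, 76.0 and 28.3 RPKM in calcium-high against 102, 65.3 and 20.2 RPKM in calcium-low libraries. Both libraries numbered 3 were the lowest of their group for Ifitm1. The adjusted p stayed between 0.00175 and 0.0185 in the 8 alternatives run for libraries 4 to 7.

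Ifitm3 (chromosome 7, 141009586 to 141010770, minus strand) lies near Ifitm1 and encodes the member of this family best known for blocking influenza virus in endosomes. Calcium-high libraries 4 to 7 had 125, 182, 171 and 190 RPKM, against 120, 110, 116 and 103 RPKM in calcium-low libraries. The groups did not overlap, but calcium-high library 4 exceeded calcium-low library 4 by little. The difference was 0.55 ± 0.12 on the log2 scale with an adjusted p of 0.0205 by limma. Of the 8 alternatives for libraries 4 to 7, 3 kept the call, and the adjusted p rose to as much as 0.144. Ifitm2, which lies in the same cluster and also hinders viral entry, had 59.5 to 103 RPKM in calcium-high against 67.0 to 88.8 RPKM in calcium-low libraries, with medians of 69.4 and 77.3 RPKM. The 3 Ifitm genes resemble each other in sequence, and how the authors' counting treated shared reads is not given in the sources used here.

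Irgm2 (chromosome 11, 58199618 to 58222782, plus strand) encodes a GTPase that interferon induces against microbes inside vacuoles. Its levels in calcium-high libraries 4 to 7 were 3.45, 3.95, 3.67 and 5.85 RPKM, and in calcium-low libraries 1.63, 2.40, 1.35 and 2.30 RPKM. The groups did not overlap, and the difference was 0.84 ± 0.16 on the log2 scale with an adjusted p of 0.00948 by limma. Without both libraries numbered 6, the adjusted p was 0.0655. In libraries 1 to 3 the values were 5.94, 6.4 and 1.86 RPKM against 6.08, 5.94 and 2.02 RPKM. Libraries 1 and 2 of both groups were thus above the highest calcium-high library of the second set, and libraries numbered 3 were near its calcium-low level. The annotated span of Igtp, another such GTPase, lies almost wholly within that of Irgm2 on the same strand, so their reads may be shared. Igtp had 2.40 to 5.88 RPKM in calcium-high against 2.55 to 4.15 RPKM in calcium-low libraries.

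Samhd1 (chromosome 2, 157097533 to 157135265, minus strand) encodes an enzyme that breaks down the nucleotides that DNA synthesis needs and so restricts retroviruses. Calcium-high libraries 4 to 7 had 9.38, 11, 11.8 and 12.2 RPKM, and calcium-low libraries had 7.91, 8.13, 6.22 and 8.72 RPKM. The groups did not overlap, and the difference was 0.47 ± 0.11 on the log2 scale with an adjusted p of 0.0255 by limma. Samhd1 was higher in calcium-high libraries in 6 of 7 pairs of the same number. It lost the call with median-of-ratios scaling, alone or with the block, and without the libraries numbered 6 or 7. Leaving out the pair numbered 6 left Ifitm1 alone of the 4 genes called, beside 1.36% of all genes called higher, and leaving out the pair numbered 7 left Ifitm1 and Irgm2, beside 1.84%.

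**Figure D2:**
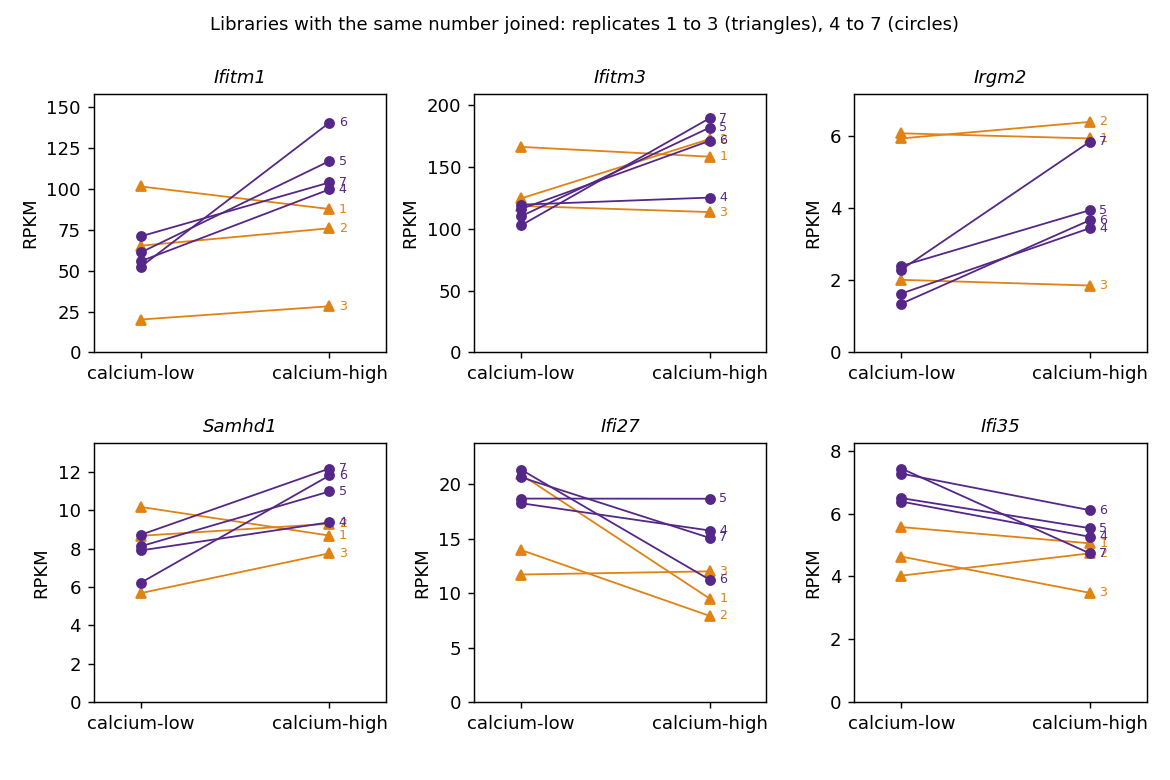
RPKM of 6 members in calcium-low (left) and calcium-high (right) libraries, with libraries of the same number joined by a line and labelled by it, in orange triangles for 1 to 3 and purple circles for 4 to 7. The purple lines of Ifitm1 rise from 52.4 to 71.0 RPKM up to 99.8 to 141 RPKM, while the orange lines change less and the pair numbered 3 lies lowest.

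Marker sums differed between the same libraries 4 to 7. Those of HSCs were 418, 400, 420 and 458 RPKM in calcium-high libraries against 376, 374, 329 and 340 RPKM in calcium-low ones, without overlap. The 10 monocyte and macrophage markers summed to 7.52, 39.5, 14.3 and 4.68 RPKM in calcium-high against 2.69, 4.88, 3.27 and 2.22 RPKM in calcium-low libraries. Of these markers, 2 had a mean of 1 RPKM or more over all libraries, Ly6c2 at 3.23 and Cd68 at 1.86 RPKM. The 10 erythroid markers summed to 27.2 to 64.7 RPKM against 15.1 to 39.3 RPKM. The 9 T and NK cell markers summed to 10.2 to 20.1 RPKM against 22 to 34.4 RPKM. Nkg7 alone of those 9 had a mean of 1 RPKM or more, at 14.7 RPKM over all libraries. The B cell marker Ms4a1 and the T cell markers Cd3e and Cd3g were at 0 in all libraries. The part of these differences in the result was not tested.

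Among members with lower values in calcium-high HSCs, Ifi27 and Ifi35 had the smallest p-values in libraries 4 to 7 without the block, and neither passed there with RPKM as deposited and all 4 pairs. Without the pair numbered 5, Ifi27 was called lower, beside 160 of 9921 genes called lower. With the block the smallest p was that of Oas2 (adjusted p = 0.0711, limma). Ifi27, a small mitochondrial protein gene that interferon induces, had 7.91 to 18.7 RPKM (median 12) in calcium-high and 11.7 to 21.3 RPKM (median 18.7) in calcium-low libraries. It was lower in 6 of 7 pairs, with a difference of -0.47 ± 0.14 on the log2 scale and an adjusted p of 0.138 by limma with the block. In 35 of 35 alternatives to the fit over all libraries its difference was below 0, from -0.56 to -0.36. Ifi35, a partner of the interferon-induced protein Nmi, had 5.26, 5.54, 6.11 and 4.73 RPKM in calcium-high against 6.39, 6.5, 7.28 and 7.44 RPKM in calcium-low libraries 4 to 7. These did not overlap, with an adjusted p of 0.0621 by limma.

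In libraries 4 to 7, 7 members separated the groups without overlap, beside 16.9% of all genes. Of these, 6 were higher in calcium-high libraries, namely the 4 genes called, Ifih1 and Gbp3, and 1 was lower, Ifi35. Ifih1, the cytoplasmic sensor of long double-stranded RNA, had 2.74 to 3.32 RPKM against 2.03 to 2.63 RPKM, with an adjusted p of 0.0643 by limma. With median-of-ratios scaling 2 were higher, Ifitm1 and Irgm2, and 4 lower, Ifi27, Ifi35, Dhx58 and Tap1, beside 14.4% of all genes.

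Libraries 1 to 3 gave another picture. Limma called 0 of 47 members, beside 0.00% of all genes, and had 3 at an unadjusted p under 0.05, Psmb8, Psmb9 and Ifi27, all lower, beside 11.4% of all genes lower. There 10 of 47 members were higher in calcium-high libraries, and the members' median difference was -0.18 against -0.20 for all genes. Median-of-ratios scaling brings the median of all genes near 0 by design, here to -0.02, and the members' median was then 0.02. Ifnar2, Ifitm2, Psmb8, Psmb9 and Tap1 were lower in calcium-high libraries without overlap, beside 19.7% of all genes. With median-of-ratios scaling Psmb8 was the only one of these left, while Oas3, Rsad2 and Samhd1 were higher without overlap, beside 8.93% of all genes.

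**Figure D3:**
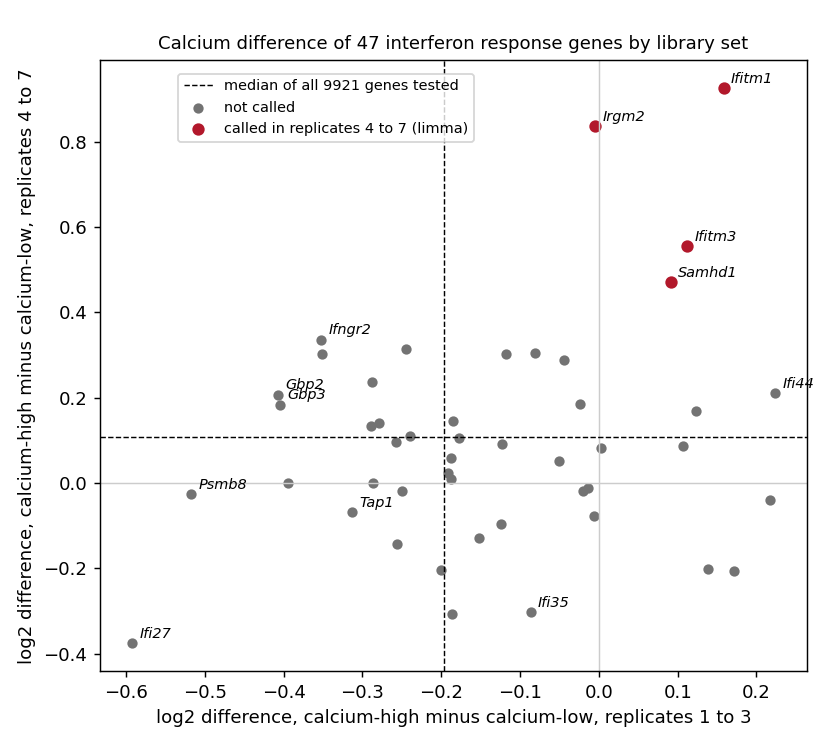
Calcium difference of the 47 tested members in libraries 1 to 3 (horizontal) and 4 to 7 (vertical), as log2 difference, calcium-high minus calcium-low, with dashed lines at the median of all 9921 genes. The 4 genes called in libraries 4 to 7 (red) stand at 0.47 to 0.93 on the vertical axis and between -0.005 and 0.16 on the horizontal one.

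The difference between the sets was itself tested. Limma called 0 members as differing between libraries 4 to 7 and 1 to 3, beside 0.00% of all genes, with 7 members at an unadjusted p under 0.05, beside 28.6%. With the block it called Irgm2, by 0.84 ± 0.16 on the log2 scale with an adjusted p of 0.0463, beside 1.54% of all genes called higher. With median-of-ratios scaling added to the block, no member was called, beside 0.0907% of all genes. Without both libraries numbered 2, the fit with the block called 7 members, Gbp2, Gbp3, Gbp7, Irgm2, Psmb8, Psmb9 and Parp9, beside 16.2% of all genes called higher. The median of all genes for this difference was 0.31 on the log2 scale with RPKM as deposited. It was below 0.01 in size with median-of-ratios scaling, which brings it near 0 by design. Of the 4 genes called in libraries 4 to 7, Irgm2 was called for this difference in these 2 fits with the block, and Ifitm1, Ifitm3 and Samhd1 in neither.

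The 4 receptor genes were read at every library, and none passed the test. In order of level, Ifngr1 had a mean of 13.3 RPKM, Ifnar1 6.25, Ifnar2 4.65 and Ifngr2 2.53 RPKM. Ifngr1, the chain that binds interferon gamma, had 9.37 to 25.4 RPKM (median 11.6) in calcium-high and 8.01 to 28.2 RPKM (median 10.3) in calcium-low libraries. Its highest value in both groups was in the library numbered 3, and the next highest values were 12.1 and 15.4 RPKM.

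Ifnar1 had 4.54 to 7.97 RPKM (median 6.14) in calcium-high and 5.11 to 7.15 RPKM (median 6.61) in calcium-low libraries. Ifnar2, the chain of the type I receptor that binds the interferon most tightly, had 3.58 to 5.30 RPKM (median 4) against 4.24 to 5.68 RPKM (median 4.96). It was lower in calcium-high libraries in 6 of 7 pairs, by -0.19 ± 0.09 on the log2 scale with an adjusted p of 0.361 by limma with the block. Ifngr2, the signalling chain for interferon gamma, had 1.38 to 3.87 RPKM (median 2.99) against 1.81 to 3.36 RPKM (median 2.24). In libraries 4 to 7 its means were 3.29 ± 0.394 and 2.43 ± 0.595 RPKM (SD, n = 4; adjusted p = 0.121, limma), and in libraries 1 to 3 they were 1.70 ± 0.461 and 2.47 ± 0.804 RPKM (SD, n = 3; adjusted p = 0.443, limma). The difference between the sets had an adjusted p of 0.117 by limma, and 0.0554 with the block. The order of level is that of the means, and ranges of neighbours overlapped within calcium-high libraries, Ifnar1 with Ifnar2 and Ifnar2 with Ifngr2.

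**Figure D4:**
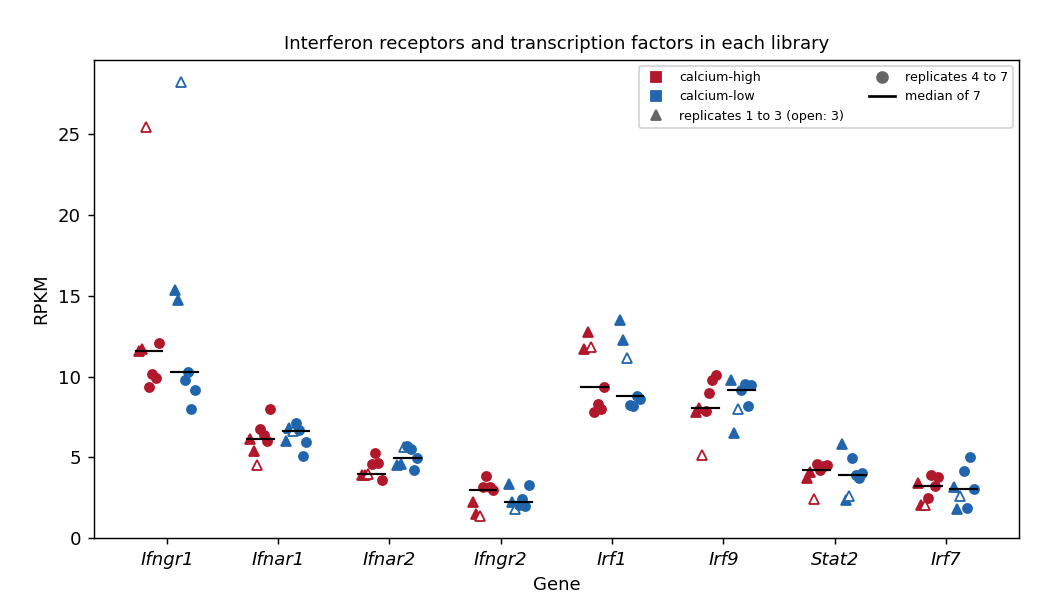
RPKM of the 4 receptor genes and 4 transcription factors in each library, calcium-high in red and calcium-low in blue, with triangles for libraries 1 to 3 (open for 3), circles for 4 to 7 and a bar at the median of 7. The open triangles of Ifngr1, at 25.4 and 28.2 RPKM, stand above all other libraries, and the bars of the groups lie close together for most genes.

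Among the transcription factors and feedback regulators the groups overlapped and no gene was called. Irf1, an activator that interferon gamma induces, had 7.79 to 12.7 RPKM (median 9.34) in calcium-high and 8.20 to 13.5 RPKM (median 8.79) in calcium-low libraries, a difference of -0.02 ± 0.08 with the block. Irf9 had means of 8.25 ± 1.65 and 8.66 ± 1.18 RPKM (SD, n = 7), Stat2 of 4 ± 0.75 and 3.91 ± 1.22 RPKM, and Irf7, which amplifies type I interferon, of 2.99 ± 0.798 and 3.09 ± 1.17 RPKM. Usp18, a protease that shuts off the type I receptor, had 1.02 to 2.61 RPKM (median 2.23) against 1.13 to 4.57 RPKM (median 2.04). Ddx58 (RIG-I), the sensor of viral RNA ends and the highest of the sensors, had 5.31 to 8.61 RPKM (median 7.56) against 5.99 to 11.4 RPKM (median 7.72). The 4 sensors differed by -0.12 to 0.14 on the log2 scale over all libraries.

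Of the remaining antiviral effectors, none was called with RPKM as deposited, and the groups of those below overlapped over all libraries. Bst2, which tethers budding virus to the cell, had 8.06 to 23.1 RPKM (median 15.2) in calcium-high and 7.18 to 16.1 RPKM (median 13.9) in calcium-low libraries. The oligoadenylate synthetases, which switch on RNA decay when they meet double-stranded RNA, were not called: Oas2 was lower in calcium-high libraries in 6 of 7 pairs, with means of 3.15 ± 1.09 and 4.17 ± 1.91 RPKM (SD, n = 7), and Oas1a had means of 7.70 ± 1.73 and 7.85 ± 2.81 RPKM. Isg15 had 0.609 to 3.45 RPKM (median 1.27) against 0.575 to 2.62 RPKM (median 2.03). Of the 17 effectors tested, 8 were higher and 9 lower in calcium-high libraries over all 14.

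All 7 GTPases were above 0 in the difference of libraries 4 to 7, as 73.8% of all genes were, with a median of 0.21 on the log2 scale, and Irgm2 alone of them was called. With median-of-ratios scaling 6 of 7 were above 0, beside 43.7% of all genes, and Irgm1 was at -0.09. The median of the 7 was then 0.06, against -0.02 for all genes. Gbp7, the highest of them, and Gbp2 and Gbp3 are guanylate-binding proteins that attack the vacuoles of intracellular microbes. Gbp2 had 6.11, 6.24, 7.13 and 7.19 RPKM in calcium-high against 5.46, 5.46, 5.50 and 6.12 RPKM in calcium-low libraries 4 to 7. Those groups overlapped by a single calcium-low library. In libraries 1 to 3 Gbp2 had 8.14, 6.88 and 3.89 RPKM against 11.1, 7.69 and 6.78 RPKM, lower in each calcium-high library than in the calcium-low one of the same number. Gbp7 had means of 8.21 ± 1.63 and 6.4 ± 0.549 RPKM (SD, n = 4) in libraries 4 to 7 and of 8 ± 2.21 and 10.5 ± 3.15 RPKM (SD, n = 3) in libraries 1 to 3. Calcium-low library 1 was the highest of all libraries for Gbp2, Gbp3, Gbp7, Irgm1 and Iigp1.

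The antigen processing members, 2 subunits of the immunoproteasome and the peptide transporter Tap1, were all lower in calcium-high libraries over all 14, and none was called. Psmb8 had 10.4 to 13.9 RPKM (median 11.9) in calcium-high and 11.7 to 21.4 RPKM (median 13.8) in calcium-low libraries, lower in 6 of 7 pairs. In libraries 1 to 3 its difference was -0.52 ± 0.19 and in libraries 4 to 7 -0.03 ± 0.09 on the log2 scale (adjusted p = 0.421 and 0.880, limma), and the difference between the sets had an adjusted p of 0.134. Psmb9 had 10.2 to 21.4 RPKM (median 12.9) against 13 to 19.6 RPKM (median 16.3). Tap1 was the only member lower in calcium-high libraries in all 7 pairs, beside 3.02% of all genes, by 0.07 on average in libraries 4 to 7. No member was higher in all 7 pairs, as 2.49% of all genes were. For Psmb8 and for Tap1, 2 copies were listed at nearly the same level, and which annotated copy a label marks is not given.

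Some members split the libraries by set and not by calcium. Irrespective of calcium, 6 members did not overlap between the sets, beside 17.1% of all genes. Irf1 was higher in libraries 1 to 3, with 11.2 to 13.5 RPKM against 7.79 to 9.34 RPKM, as were Ifih1, Ifit2 and Eif2ak2, the kinase PKR that halts translation. Bst2 and Tap1 were higher in libraries 4 to 7, Tap1 with 12.8 to 15.3 RPKM against 7.22 to 11.5 RPKM. The sets also differed in depth and, for libraries 1 and 2, in reads of chromosome Y genes (1298 to 1638 reads, against 0 to 4 in all others), and the part of these differences was not tested.

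**Figure D5:**
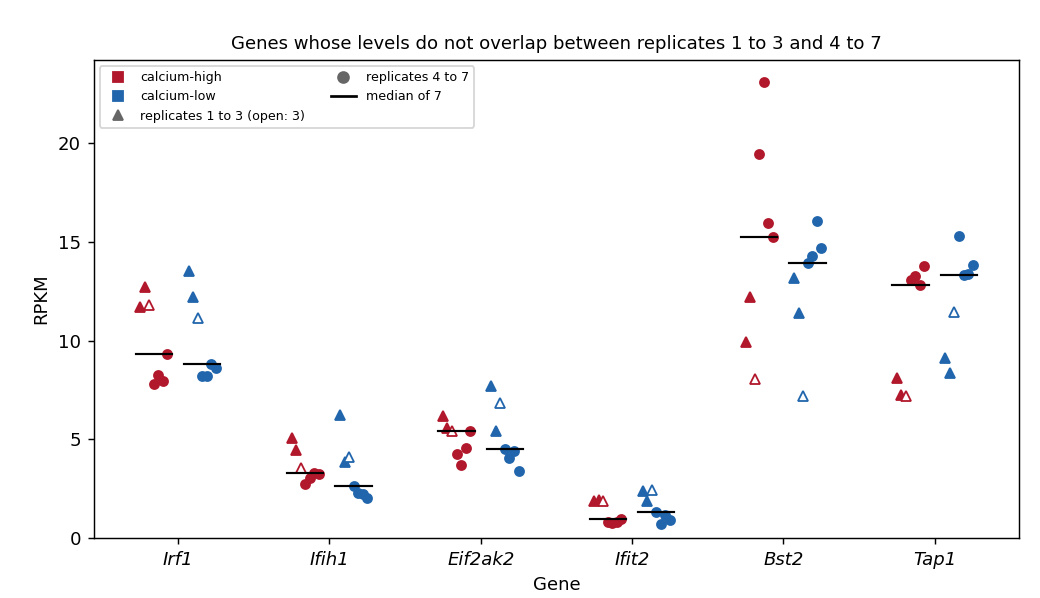
RPKM of the 6 members whose levels did not overlap between libraries 1 to 3 (triangles, open for 3) and 4 to 7 (circles), calcium-high in red and calcium-low in blue, with a bar at the median of 7. For Irf1, Ifih1, Eif2ak2 and Ifit2 all triangles lie above the circles, and for Bst2 and Tap1 below them.

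Single libraries also moved many members at once. The lowest of the 14 libraries was one of those numbered 3 for 25 of the 47 members, against 25.8% of all genes, and the highest was one of them for 3 members, against 28.0%. Calcium-low library 1 was the highest for 17 members, against 20.3% of all genes. Calcium-low library 1 had 3.23 as the members' mean log2(RPKM + 1), the highest of all, and calcium-high library 3 the lowest at 2.50. By pair, the members' median difference was -0.27 in pair 1, 0.08 in pair 2 and -0.16 in pair 3, and all genes had -0.25, -0.11 and -0.22. In pairs 4 to 7 it was -0.07, 0.11, 0.15 and 0.16, and all genes had 0.02, 0.12, 0.16 and 0.10.

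The members were also divided by the ISRE core in the promoter, as a description. In libraries 4 to 7 the 19 tested members with the core had a median difference of 0.11 on the log2 scale, and 14 were above 0. The 20 without it had a median of 0.02 and 12 above 0. All genes tested had a median of 0.11 there, and 73.8% were above 0. Over all libraries the medians of members with and without the core were -0.0001 and -0.04. Ifitm1, with the largest difference, held no such match in the window read. Isg15, with 3, had 1.90 ± 1.06 and 2.21 ± 0.388 RPKM (SD, n = 4) in calcium-high and calcium-low libraries 4 to 7.

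Unless stated, genes of the wider pathway were read in the fits to RPKM as deposited, with and without the block. Of 12 kinases, STATs and inhibitors tested, 0 were called over all libraries, and in libraries 4 to 7 the inhibitor Socs3 fell, with 0.833 ± 0.186 against 1.55 ± 0.303 RPKM (SD, n = 4; adjusted p = 0.0338, limma). None of the 12 sensors and adaptors was called in any of these fits, and the smallest p with the block was that of the kinase Ikbke, at 7.07 ± 1.57 against 5.55 ± 1.32 RPKM (SD, n = 7; adjusted p = 0.192, limma). The next were Mb21d1 (cGAS), the DNA sensor, at 1.52 ± 0.260 against 1.99 ± 0.471 RPKM, and the adaptor Myd88 at 6.06 ± 1.11 against 5.19 ± 0.872 RPKM. Irf2bp2, a repressor partner of IRF proteins, fell in libraries 4 to 7, with 24.3 ± 1.6 against 30.6 ± 2.55 RPKM (SD, n = 4; adjusted p = 0.0371, limma).

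Of 47 other interferon-induced genes tested, 7 rose and 0 fell in calcium-high libraries 4 to 7: Gbp9, Gbp4, Slfn2, Batf2, Ly6a, Tdrd7 and Shisa5. Over all genes 6.36% were called higher and 1.78% lower there. With the block 6 of these were called and Tdrd7 was not, beside 5.06% of all genes called higher. With median-of-ratios scaling 3 of the 47 were called higher and 0 lower, beside 237 higher and 459 lower of all 9921 genes. Gbp9 had 1.99, 1.57, 2.23 and 3 RPKM in calcium-high against 0.498, 0.325, 0.531 and 0.732 RPKM in calcium-low libraries 4 to 7 (adjusted p = 0.00123, limma). The groups did not overlap, but the spans of Gbp9 and Gbp4 overlap on chromosome 5, so their reads may be shared. Ly6a, the stem cell antigen Sca-1, had means of 15.9 ± 4.02 and 10.1 ± 1.63 RPKM (SD, n = 4; adjusted p = 0.0437, limma).

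Voom and rescaled fits aside, Batf2 was the only gene of these lists called over all 14 libraries, and that with the block. Batf2 is a transcription factor that interferon gamma induces. It had 2.08 ± 0.383 RPKM for calcium-high against 1.07 ± 0.302 RPKM for calcium-low HSCs (SD, n = 7), was higher in all 7 pairs, and had an adjusted p of 0.0364 by limma with the block. Slfn2, a regulator of lymphocyte quiescence, had 2.62 ± 1.56 against 0.464 ± 0.399 RPKM, with an adjusted p of 0.0587 by limma with the block. The difference between the sets was called with the block for Gbp9, Slfn9 and the MHC gene H2-T22 (adjusted p = 0.0416, 0.0457 and 0.0481, limma). Of 16 genes of MHC class I and its loading, H2-D1 rose in libraries 4 to 7 (adjusted p = 0.0437, limma, and 0.0620 with the block), with 36.8 ± 4.29 against 29.0 ± 1.64 RPKM (SD, n = 4), and 4 copies of it were listed at nearly the same level.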

How the data were processed

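Total RNA of 100 sorted HSCs per library was sequenced, and the authors deposited RPKM per gene label for each of 14 libraries; the unit was read from the values. GRCm38, mm10 and edgeR are named per the submitters' processing notes, without a role or version, and the aligner, the counter and their settings are not given in the sources used here. RPKM were whole multiples of what 1 read is worth for 9848 of 9848 genes checked (100%, within 0.02 reads), which gave the reads and depths; listed genes held 25% to 32.5% of them.

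Of 48737 labels in each file, 23 serial-number labels were left out. Limma 3.58.1 (R 4.3.3, with trend) was run on log2(RPKM + 1) for the 9921 genes whose mean reached 1 RPKM, with Benjamini-Hochberg adjustment over all of them and a threshold of 0.05, for all libraries, for libraries 1 to 3, for 4 to 7, and for the difference between those sets. Differences are calcium-high minus calcium-low, and log2(RPKM + 1) understates changes of low genes. Alternatives were the library number as a block, median-of-ratios and upper-quartile scaling, voom with sample quality weights on the recovered reads, other pseudocounts and filters, and leaving out libraries. The numbers were taken to pair libraries, because deviations from the group means correlated by 0.384 to 0.715 in all 7 pairs. Taken from the means of each set, the correlation was 0.276 to 0.552 in pairs 1 to 3 and -0.0647 to 0.123 in pairs 4 to 7, and 5 of 14 libraries correlated best with their own number. Genes named in full were those called in any fit, those with the 8 smallest p-values without and with the block or between the sets, the highest of each role and the receptors. The fits were tested on simulated reads. Members and lists were chosen with earlier results of these data known. Figures used matplotlib 3.10.9. Some genes of the wider pathway are not reported here.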

Additional observations from a re-analysis of the deposited data

Results flagged for a closer look

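Groups of 7 libraries, 94 in all (47 members in each calcium group), were read for an outlying library. In 13 of them (13.8%) the gap of a library to the nearest other exceeded the 95% limit of Dixon's test. That limit flags about 1 in 20 where groups are independent and values normal. These groups are the same 14 libraries read for 47 members, and the share over all genes was not computed, so these rates cannot be compared. Of the 13, 8 were in calcium-low library 1, the highest library for 20.3% of all genes. Its Iigp1 was 11.1 RPKM, against 0.826 to 3.12 in the other calcium-low libraries, its Irgm1 14.5 against 5.5 to 8.5, its Gbp2 11.1 against 5.46 to 7.69 and its Gbp3 5.79 against 2.03 to 3.44. Its Psmb8 was 21.4 RPKM against 11.7 to 15.5, its Oasl2 10.8 against 5.89 to 7.14, its Parp14 6.03 against 3.29 to 4.46 and its Ifitm3 166 against 103 to 125.

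Ifngr1 was high in both libraries numbered 3, at 25.4 RPKM in calcium-high against 9.37 to 12.1 in the others and at 28.2 in calcium-low against 8.01 to 15.4. Stat2 was low in calcium-high library 3, at 2.43 RPKM against 3.73 to 4.56, and Isg15 in calcium-low library 3, at 0.575 against 1.75 to 2.62. Oas3 was high in calcium-high library 7, at 6.36 RPKM against 3.28 to 4.4.

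The calcium difference went opposite ways in the 2 library sets for Gbp2 and Gbp3, lower in all of pairs 1 to 3 and higher in all of pairs 4 to 7. Taken singly, these held for 47.1% and 27.0% of all genes, and the share with both was not computed. The sets differed by 0.614 on the log2 scale for Gbp2 (adjusted p = 0.152, limma) and by 0.589 for Gbp3 (adjusted p = 0.174, limma), so neither difference passed. The median of all genes was 0.31 in the same comparison, and with median-of-ratios scaling the sets differed by 0.27 for Gbp2 and 0.29 for Gbp3. For Irgm2 the sets differed by 0.841 with the library number as a block (adjusted p = 0.0463, limma).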

How the results depend on the processing

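Over all libraries 0 members were called. Voom on recovered reads called 5, beside 7.19% of all genes. With the library number as a block it also called 5, beside 578 genes higher and 277 lower of 9921. The block with median-of-ratios scaling called 3, all higher, beside 2.04% of all genes called higher. Leaving out libraries from the fit over all of them gave 0 to 1. The 1 was Ifi27, without the pair numbered 3 and with the block, beside 1.39% of all genes called lower. In libraries 4 to 7, leaving out a pair gave 1 to 4 called members, 1 without the pair numbered 6 and 2 without that numbered 7. Those 2 fits called 1.36% and 1.84% of all genes higher. For the difference between the sets, the block gave 1 called member, beside 1.54% of all genes called higher. Leaving out libraries gave 0 to 7, the 7 without the pair numbered 2 and with the block, beside 16.2% called higher. In libraries 1 to 3, 5 members were lower without overlap, beside 19.7% of all genes. With upper-quartile scaling these were replaced by 2 that were higher, Irf1 and Oas3, beside 492 of 9921 genes higher. The causes were not tested. With RPKM as deposited the block changed no other member's call, and with median-of-ratios scaling in libraries 4 to 7 it ended that of Ifi27 and added Oas2. No called value changed sign. Of the 20 genes named by the rule, 10 that were not called over all libraries took either sign across alternatives, such as Gbp7 (-0.09 to 0.29), Gbp2 (-0.12 to 0.15), Ifngr1 (-0.21 to 0.15) and Irf1 (-0.08 to 0.05). The members' median in libraries 4 to 7 turned from 0.09 to -0.06 with median-of-ratios scaling. Among the values of single genes, 997 stayed on their side of the threshold, 21 came to pass it and 10 ceased to. Depth limits low members: 3 reads of a 1 kb gene were worth 0.0808 to 0.21 RPKM, counting error only.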
